A study of Macaca fascicularis with 20 samples.

Results

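The miRNAs miR-92b, miR-25 and miR-363 were followed across 7 laser-cut regions of the fetal visual cortex of the crab-eating macaque, Macaca fascicularis. They were taken by name (mir-92b, mir-25 and mir-363) from the deposited tables, 3 of the 828 miRNA names that both tables hold, with the 5p and the 3p arm of each, which gives 6 arms. These miRNAs belong to the miR-25/92 seed family. In these 3 the 3p arm carries a common seed, the short stretch near its 5′ end that pairs with target mRNAs, so relatives can repress overlapping sets of targets, while the 5p arm is usually the passenger strand that is degraded. In the mouse, miR-92b has been shown to restrain the making of intermediate progenitors in the developing cortex. miR-25 is processed from an intron of MCM7, a DNA replication gene, together with miR-106b and miR-93, and miR-363 comes from the X-linked miR-106a cluster.

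Tissue was cut by laser from 3 zones. The ventricular zone (VZ) lines the ventricle and holds dividing radial glia. The outer subventricular zone (OSVZ) is a basal germinal layer that is thick in primates. The cortical plate (CP) receives the young neurons. VZ and CP were cut in areas 17 and 18 and OSVZ in area 18. In area 17 the inner part of OSVZ (OSVZ_17int) and its outer part (OSVZ_17ext) were cut separately. Each of the 7 regions had 2 libraries, replicate 1 of embryonic day 80 and replicate 2 of day 79, so there were 4 VZ, 6 OSVZ and 4 CP libraries. The labels give no genotype or treatment, and they do not say whether the regions of a day came from 1 animal. The edgeR p-values rest on how the 2 libraries of a region differ beyond a shift shared by all libraries of a day. The permutation p-values rest on the spread between the libraries of a zone, across areas, sublayers and days. Both spreads may be partly technical.

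Library totals ran from 3603478 to 9517217 counts. Each piece of tissue holds many cells, so a change in the number of cells of a type and a change in the RNA per cell cannot be told apart. Arms of miR-137, miR-138, miR-139, miR-132 and miR-124, taken as a neuronal list, summed to 882 to 2128 CPM (TMM-scaled CPM, the count of an arm relative to the scaled total of its library) in VZ, 1401 to 4240 CPM in OSVZ and 12046 to 19925 CPM in CP, so every VZ and OSVZ library lay below every CP library. Of its 9 tested arms, 5 were called lower in VZ than in CP and 6 lower in OSVZ (edgeR), beside a background of 4.74% and 4.21% of all tested arms. Few counts stood under the name of the neuronal miRNA miR-124, with its 3p arm at 0 to 0.86 CPM in VZ, 0 to 2.42 CPM in OSVZ and 0 to 2.99 CPM in CP. Its level in the tissue and the way its reads were counted cannot be told apart here, since the annotation and the treatment of multi-mapping reads are not given. In contrast, miR-9-5p, another brain miRNA, ran from 3291 to 58854 CPM in VZ, 8551 to 63791 CPM in OSVZ and 26551 to 118734 CPM in CP. VZ_17 replicate 2 stood apart in the brain arms (miR-9 and miR-124), which summed to 5298 CPM there against 40547 to 71511 CPM in the other VZ libraries, and in OSVZ the sum was lowest in OSVZ_17int replicate 2, at 11824 CPM. VZ_18 replicate 1 stood apart in its erythroid arms (miR-451, miR-144 and miR-486), which summed to 334 CPM there against 55.9 to 127.6 CPM in the other VZ libraries. It also stood apart in the pluripotent arms (miR-302), which summed to 74.3 CPM there against 1.08 to 11.8 CPM in the other VZ libraries.

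Among the named seed relatives in the tables, miR-92b had the highest 3p levels in the germinal zones; miR-92a is not analysed here. Its 3p arm stood at 52143 and 46431 CPM in VZ_17, at 25498 and 31245 CPM in VZ_18, between 13464 and 25289 CPM (median 19475) in the 6 OSVZ libraries, and at 1082 and 961 CPM in CP_17 and 583 and 518 CPM in CP_18. Every VZ library lay above every OSVZ library, and every OSVZ library above every CP library. Of all tested arms, 3.07% had every VZ library above every CP library and 2.72% had every OSVZ library above every CP library. By region means the order was VZ_17 (49287), VZ_18 (28372), OSVZ_18 (20414), OSVZ_17ext (20027), OSVZ_17int (16321), CP_17 (1021) and CP_18 (551 CPM). In this order the libraries of OSVZ_18 and OSVZ_17ext overlapped, and the nearest libraries of VZ_18 and OSVZ_18 stood at 25498 and 25289 CPM. Among the arms of a library, miR-92b-3p ranked between the 4th and the 7th by count in VZ, between the 7th and the 13th in OSVZ and between the 63rd and the 88th in CP. Without any scaling between libraries, it took 3.36% to 6.76% of all counts in VZ, 0.763% to 2.90% in OSVZ and 0.0444% to 0.111% in CP.

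**Figure D1:**
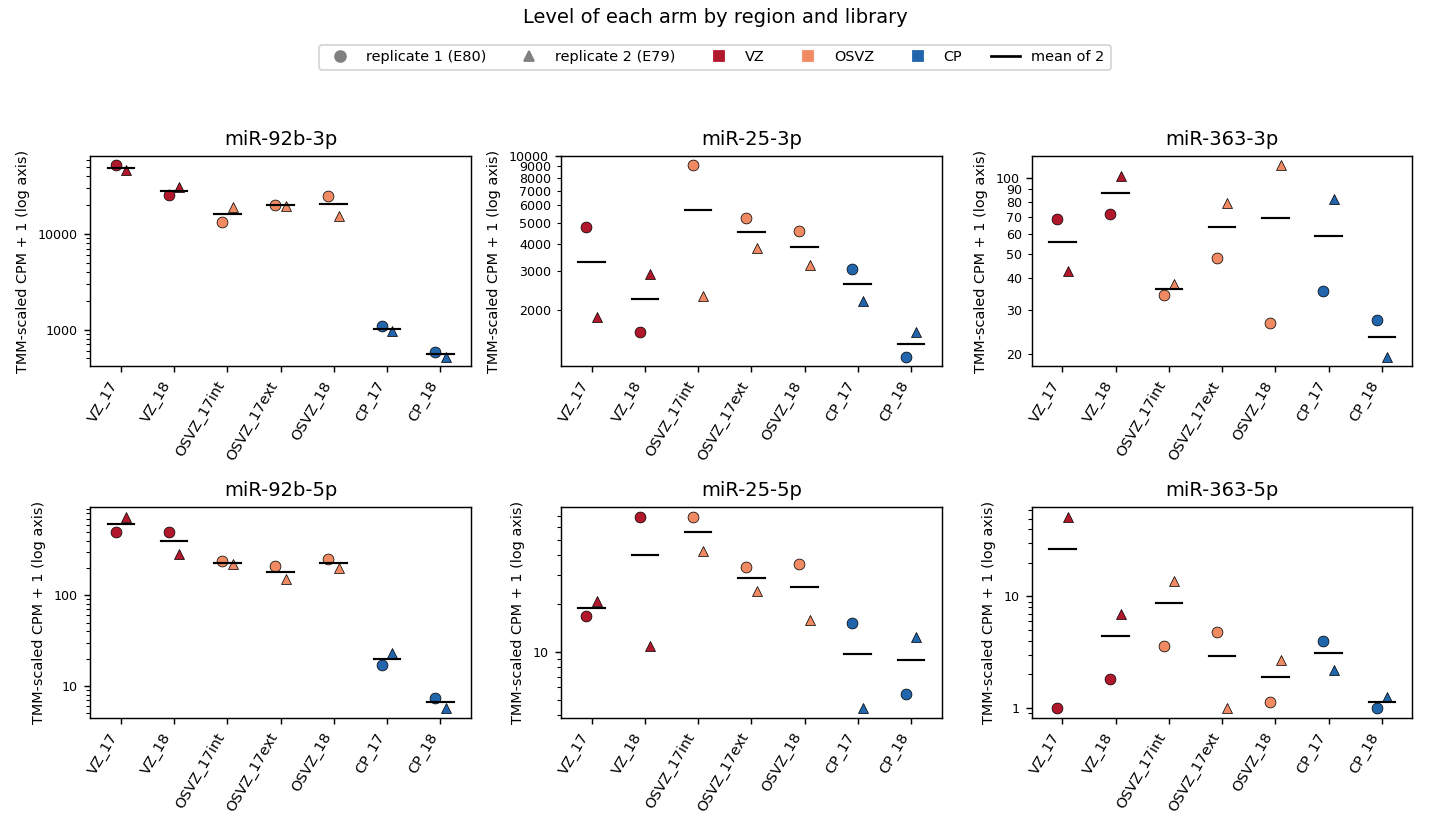
TMM-scaled CPM plus 1 (log axis, a separate scale for each panel) of the 6 arms in the 7 regions, with circles for replicate 1, triangles for replicate 2 and a black line at the mean of both. Both arms of miR-92b step down from VZ through OSVZ to CP (38829, 18921 and 786 CPM on average for the 3p arm), while the libraries of miR-363-3p overlap across all zones.

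Counts were compared with the edgeR quasi-likelihood test, fitted on all 1139 arms that passed a filter on low counts with the replicate as a block, and adjusted by the Benjamini-Hochberg method over these arms. All 6 member arms passed the filter. Both arms of miR-92b were called higher in VZ than in CP at an adjusted p under 0.05 and the other 4 arms were not, beside a background of 2.63% of tested arms called higher. For miR-92b-3p the fitted difference was 5.64 ± 0.44 (SE) on the log2 scale, a 49.95-fold higher level in VZ (adjusted p = 1.51e-11, edgeR), and its 95% interval ran from 4.75 to 6.54. It had the smallest p of all 1139 arms, and the difference of mean log2(CPM + 1) was 5.52 in the day 80 libraries and 5.75 in the day 79 libraries taken alone.

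In OSVZ against CP, again both miR-92b arms were called higher and the other 4 member arms were not (background 2.11%). miR-92b-3p was 25.6-fold higher in OSVZ (log2 difference 4.68 ± 0.41, SE), with 4.58 in the day 80 and 4.68 in the day 79 libraries. Both comparisons use the same 4 CP libraries. Scaling moved the median of all tested arms. For VZ against CP that median was -0.22 under TMM, 0.023 with DESeq2 size factors and 0.21 with library totals. For OSVZ against CP it was -0.20, -0.045 and 0.035. Relative to that median, miR-92b-3p was higher by 5.86 in VZ under TMM, 5.86 with DESeq2 size factors and 5.87 with library totals, and by 4.88, 4.87 and 4.89 in OSVZ.

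Between the germinal zones, both miR-92b arms had lower values in OSVZ, but the differences did not pass. miR-92b-3p averaged 18921 ± 4109 CPM in OSVZ (SD, n = 6) and 38829 ± 12520 CPM in VZ (SD, n = 4), a log2 difference of -0.96 ± 0.34 (SE) with a 95% interval from -1.65 to -0.28 (adjusted p = 0.382 by edgeR). miR-92b-5p averaged 211.1 ± 34.6 CPM in OSVZ and 504 ± 183 CPM in VZ (-1.205 ± 0.38, adjusted p = 0.297 by edgeR). For both arms all 6 OSVZ libraries lay below all 4 VZ libraries, which was so for 0.878% of tested arms. By edgeR 0 of 6 member arms were called here, where 0.0878% of all arms were, 2 members had an unadjusted p under 0.05 (9.92% of all arms), and DESeq2 called those 2 (background 3.12% of the arms it gave an adjusted p), miR-92b-3p with an adjusted p of 0.0224 and miR-92b-5p with 0.00664.

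The passenger arm followed the 3p arm. miR-92b-5p was at 499 and 734 CPM in VZ_17, 496 and 285 CPM in VZ_18, 152 to 251 CPM (median 214) in OSVZ, 15.9 and 21.8 CPM in CP_17 and 6.42 and 4.70 CPM in CP_18. These CP levels rest on 29 to 183 counts a library. The zones again did not overlap, and the arm was 5.58 ± 0.49 (SE) higher in VZ and 4.37 ± 0.46 higher in OSVZ than in CP on the log2 scale (adjusted p = 2.25e-10 and 1.34e-08, edgeR). The 3p arm outnumbered the 5p arm by 51.4 to 109 times in VZ, 57.1 to 130 times in OSVZ and 44.0 to 109 times in CP. The log2 of this ratio, from counts plus 0.5, differed by 0.091 between VZ and CP (exact permutation p = 0.800) and by 0.28 between OSVZ and CP (exact permutation p = 0.371).

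**Figure D2:**
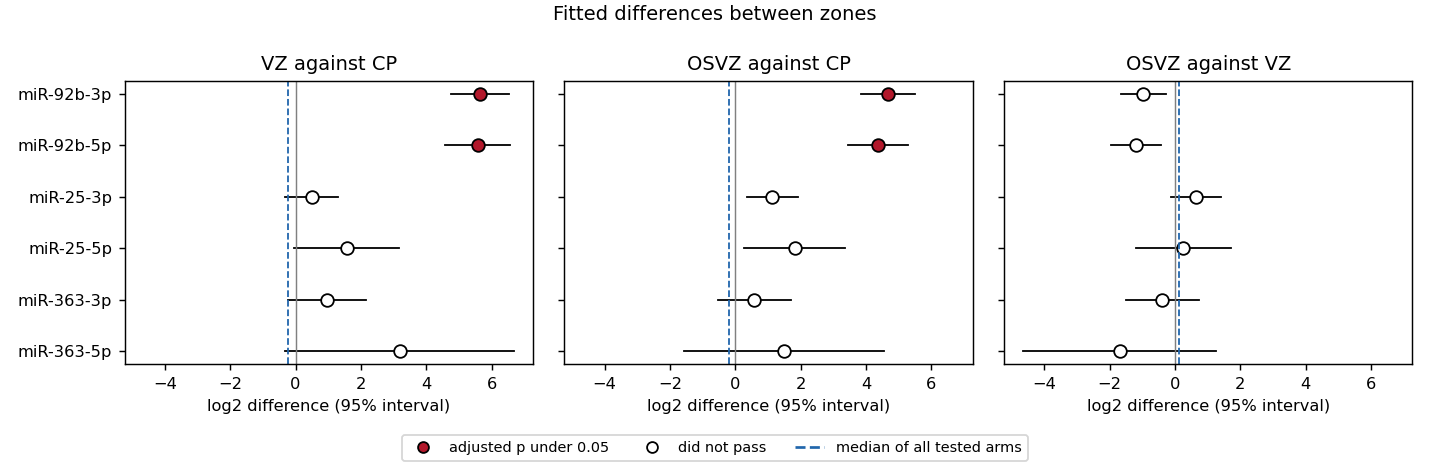
Fitted log2 differences (points) with 95% intervals (lines) of the 6 arms in 3 zone comparisons, filled where the adjusted p was under 0.05, with the median of all tested arms as a dashed line. Only the 2 miR-92b arms are filled, in the comparisons with CP, at 4.37 to 5.64, while the other 4 arms lie between 0.49 and 3.19 there.

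Markers of other cells were compared over the same zones. The 8 arms of the myeloid and lymphoid list (miR-223, miR-142, miR-155 and miR-150) summed to 740 to 996 CPM in VZ, 587 to 1189 CPM in OSVZ and 441 to 492.7 CPM in CP, with 2 of 8 called higher in VZ than in CP, 1 of 8 in OSVZ and 1 of 8, miR-142-3p, at 0 in all CP libraries. The mural arms (miR-143 and miR-145) summed to 689 to 1705 CPM in VZ, 1194 to 4684 CPM in OSVZ and 549 to 1002 CPM in CP, with 0 of 4 called higher in VZ than in CP and 1 of 4 in OSVZ. For both lists the background was 2.63% of all tested arms called higher in VZ and 2.11% in OSVZ (edgeR). The choroid plexus arms (miR-204 and miR-211) summed to 209 to 1953 CPM in VZ, 167 to 957 CPM in OSVZ and 4947 to 7254 CPM in CP, so every VZ and OSVZ library lay below every CP library. Of 3 tested arms, 1 was called lower in each comparison with CP, miR-204-5p at -3.84 ± 0.46 in VZ and -3.46 ± 0.41 in OSVZ (adjusted p = 1.47e-07 and 1.65e-07, edgeR). The background was 4.74% and 4.21% of all tested arms called lower. miR-204-5p made up most of the CP sum, at 6389 ± 1057 CPM (SD). miR-211-5p went the other way in VZ, at 62.8 ± 33.0 CPM against 25.1 ± 17.7 CPM in CP, without a call (1.46 ± 0.68, adjusted p = 0.213, edgeR). miR-211-3p was at -3.26 ± 1.81 in VZ, also without a call. The arms of this list did not move together, so its sum is not read as an amount of choroid plexus cells. The part of myeloid, lymphoid, mural or choroid plexus cells in the miR-92b difference was not tested. Without VZ_18 replicate 1 and VZ_17 replicate 2, the libraries that stood apart in erythroid and brain arms, miR-92b-3p was 5.99 higher in VZ and 4.84 higher in OSVZ than in CP.

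miR-25-3p was abundant in all zones and had its highest region means in OSVZ. It was at 4801 and 1857 CPM in VZ_17, 1595 and 2912 CPM in VZ_18, between 2326 and 9094 CPM (median 4208) in OSVZ, 3065 and 2208 CPM in CP_17 and 1228 and 1594 CPM in CP_18. By region means the order from high to low was OSVZ_17int (5710), OSVZ_17ext (4539), OSVZ_18 (3887), VZ_17 (3329), CP_17 (2637), VZ_18 (2254) and CP_18 (1411 CPM). Libraries of all 3 zones overlapped, and the highest value, 9094 CPM in OSVZ_17int replicate 1, stood beside 2326 CPM in the other library of that region. Neighbouring regions in this order overlapped, except VZ_18 and CP_18, whose nearest libraries were at 1595 and 1594 CPM.

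The difference of miR-25-3p between OSVZ and CP was 1.14 ± 0.38 (SE) on the log2 scale, 2.20-fold, with a 95% interval from 0.37 to 1.91, and did not pass (adjusted p = 0.0729 by edgeR). It was 1.63 in the day 80 libraries and 0.70 in the day 79 libraries. This call depended on the processing. miR-25-3p was called higher with DESeq2 (adjusted p = 0.0212), with DESeq2 size factors in edgeR (0.0289), with library totals (0.00411), with no filter (0.0251), with arms of at least 10 CPM (0.0204) and without VZ_18 replicate 1 and VZ_17 replicate 2 (0.00119). It was not called without the block (0.213) or with counts summed per set and zone (0.149). With single libraries left out, it was called without VZ_17 replicate 1 (0.0135), VZ_17 replicate 2 (0.00798), VZ_18 replicate 1 (0.0164), VZ_18 replicate 2 (0.0317) or OSVZ_17int replicate 2 (0.0230), with values from 0.91 to 1.42 over all 14 omissions.

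Between VZ and CP, miR-25-3p averaged 2791 ± 1456 CPM in VZ and 2024 ± 803 CPM in CP (SD, n = 4 each), and the difference of 0.49 ± 0.39 (SE) had a 95% interval from -0.31 to 1.29 (adjusted p = 0.484, edgeR). It was -0.026 without VZ_18 replicate 2, and it was called at 1.17 without VZ_18 replicate 1 and VZ_17 replicate 2 (adjusted p = 0.0327, edgeR). Between OSVZ and VZ the difference was 0.65 ± 0.37, with an interval from -0.11 to 1.41. It did not pass (adjusted p = 0.530, edgeR).

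The passenger arm miR-25-5p was rare. It had 15.7 and 19.6 CPM in VZ_17, 68.7 and 9.87 CPM in VZ_18, 14.8 to 68.0 CPM (median 33.7) in OSVZ, 14.04 and 3.45 CPM in CP_17 and 4.43 and 11.4 CPM in CP_18. All 6 OSVZ libraries lay above all 4 CP libraries, as 2.72% of tested arms did, but the difference of 1.82 ± 0.76 did not pass with edgeR (adjusted p = 0.199; 0.00749 with DESeq2). The VZ libraries overlapped both other zones, at 1.57 ± 0.79 against CP (adjusted p = 0.245 by edgeR; 0.0250 with DESeq2). The 68.7 CPM in VZ_18 replicate 1 were measured in the library with the highest erythroid sum and also the highest pluripotent sum (74.3 CPM). The part of red cells or of anything else in the 68.7 CPM was not tested.

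Of the 3 members, miR-363 had the lowest 3p levels. Its 3p arm had 67.7 and 41.8 CPM in VZ_17, 70.6 and 101 CPM in VZ_18, 25.5 to 111 CPM (median 42.0) in OSVZ, 34.5 and 81.4 CPM in CP_17 and 26.4 and 18.5 CPM in CP_18, from 119 to 758 counts a library. All zones overlapped. The log2 difference was 0.96 ± 0.58 (SE) for VZ against CP, with an interval from -0.22 to 2.15, and 0.58 ± 0.55 for OSVZ against CP, with an interval from -0.54 to 1.70 (adjusted p = 0.346 and 0.717, edgeR). The test does not show that miR-363-3p was level across zones, but the upper ends of these intervals lie below the lower ends of the miR-92b-3p intervals, 4.75 for VZ and 3.84 for OSVZ. Both arms come from the same libraries, and this gap between intervals is not a test of one arm against the other.

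Counts of miR-363-5p were too few to order the zones. They were 0, 376, 9 and 41 in the VZ libraries, 0 to 86 (median 11) in OSVZ and 13, 10, 0 and 2 in CP. The 376 counts were in VZ_17 replicate 2, where the 5p arm outnumbered the 3p arm with 309 counts, and no other library had more 5p than 3p counts of miR-363. The fitted difference for VZ against CP was 3.19 ± 1.73 (adjusted p = 0.282, edgeR), and it was -1.005 without VZ_17 replicate 2.

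Ratios within a library contrast the members directly, since scaling between libraries cancels. There were 10.7 to 25.005 counts of miR-92b-3p for each count of miR-25-3p in VZ, 1.48 to 8.24 in OSVZ and 0.325 to 0.475 in CP. miR-92b-3p thus outnumbered miR-25-3p in all 10 germinal libraries and was outnumbered by it in all 4 CP libraries. The log2 ratio averaged 3.88 ± 0.58 in VZ (SD, n = 4), 2.11 ± 0.84 in OSVZ (n = 6) and -1.35 ± 0.25 in CP (n = 4). The groups did not overlap in any pair of zones.

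The ratio of miR-92b-3p to miR-25-3p differed by 5.23 on the log2 scale for VZ against CP (exact permutation p = 0.0286, 2-sided), by 3.46 for OSVZ against CP (exact permutation p = 0.00952) and by -1.76 for OSVZ against VZ (exact permutation p = 0.00952). Each is the smallest p that these group sizes allow. Adjusted over the family of 18 tests of 6 ratios in 3 zone pairs, they were 0.103, 0.0571 and 0.0571 and did not pass at 0.05. The ratio of miR-92b-3p to miR-363-3p differed by 4.67 for VZ against CP and by 4.13 for OSVZ against CP, again with no overlap and with the same raw and adjusted exact permutation p-values. Between OSVZ and VZ that ratio overlapped (difference -0.54, exact permutation p = 0.400). These permutations treat the libraries as exchangeable and ignore the replicate set. Permuting within sets gave larger adjusted p-values for the ratio of miR-92b-3p to miR-25-3p, as given under the processing choices. That form allows fewer arrangements, so the smallest p it can give is larger.

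The ratio of miR-25-3p to miR-363-3p overlapped between all zones. It averaged 5.24 ± 0.72 in VZ, 6.47 ± 1.21 in OSVZ and 5.80 ± 0.81 in CP on the log2 scale (SD). Its differences were -0.56 for VZ against CP, 0.67 for OSVZ against CP and 1.23 for OSVZ against VZ, with exact permutation p-values of 0.314, 0.362 and 0.124. For the arm ratio of miR-25, 3p over 5p, the differences were -1.18, -1.01 and 0.17 (exact permutation p = 0.343, 0.0571 and 0.810). For that of miR-363 they were -0.97, -0.55 and 0.42 (exact permutation p = 0.686, 0.743 and 0.848).

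**Figure D3:**
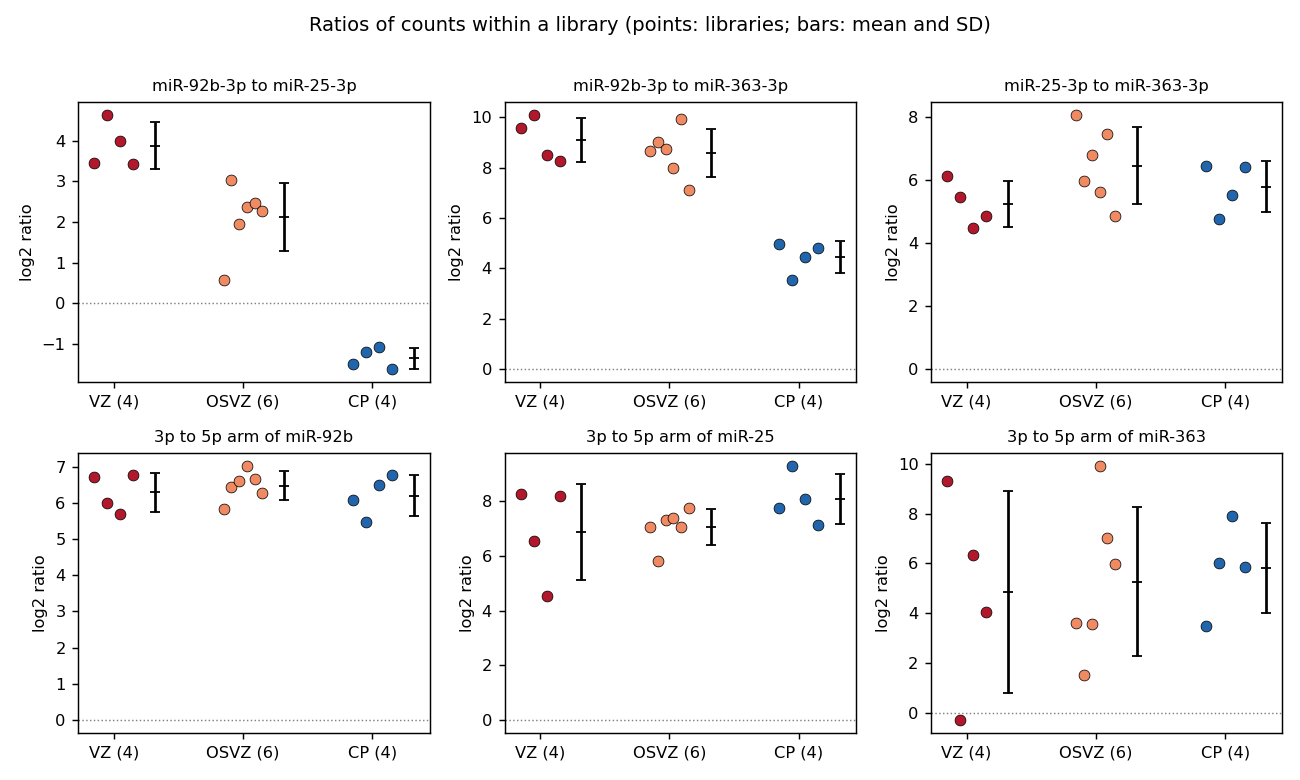
log2 ratios of counts plus 0.5 within each library, for pairs of members (upper row) and for the arms of each member (lower row), with points for libraries and black bars for mean and SD. The ratio of miR-92b-3p to miR-25-3p is above 0 in all VZ and OSVZ libraries and below 0 in all 4 CP libraries, while the arm ratio of miR-92b overlaps between zones.

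Seen as a pool, the 3p counts of miR-92b, miR-25, miR-363 and their relative miR-32 together made up 3.59% to 7.03% of a VZ library, 1.28% to 3.26% of an OSVZ library and 0.143% to 0.377% of a CP library. miR-92a is not in this pool, so the shares below are among these named miRNAs and not of the whole seed family. miR-92b-3p supplied 91.4% and 96.1% of this pool in VZ_17 and 93.7% and 91.2% in VZ_18. In OSVZ it supplied 59.4% to 89.0% (median 82.9%), with the lowest share in OSVZ_17int replicate 1. In CP it supplied 25.7% and 29.5% in area 17 and 31.2% and 24.3% in area 18. miR-25-3p made up 3.84% to 8.50% of the pool in VZ, 10.8% to 40.2% in OSVZ and 65.7% to 74.6% in CP. The share of miR-363-3p was small, with 0.0865% to 0.294% in VZ, 0.0853% to 0.587% in OSVZ and 0.821% to 2.497% in CP. The mean share of miR-92b-3p was 93.1% in VZ, 79.6% in OSVZ and 27.7% in CP. In miR-32 it is the 5p arm that carries the seed, and with that arm in the pool, a choice made after seeing the data, the means were 93.1%, 79.7% and 27.7%. Efficiencies of ligation and sequencing differ between miRNAs, so the shares are of counts and need not be shares of molecules.

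**Figure D4:**
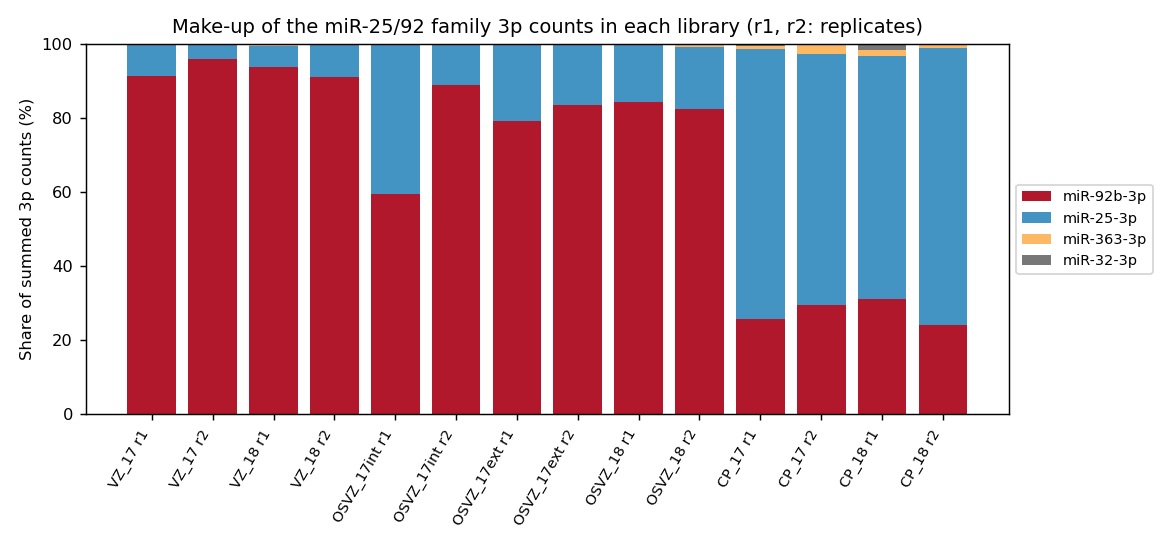
Share of each 3p arm in the summed 3p counts of miR-92b, miR-25, miR-363 and miR-32, as 1 stacked bar (0 to 100%) for each library, with VZ, OSVZ and CP from left to right. miR-92a is not part of the sum. miR-92b-3p fills 91.2% to 96.1% of the bar in VZ and 24.3% to 31.2% in CP, where miR-25-3p takes most of the rest.

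Within a zone, no member arm passed between areas or sublayers. miR-92b-3p averaged 49287 CPM in VZ_17 and 28372 CPM in VZ_18 without overlap of the 2 libraries each, as 8.6% of tested arms did in this direction, a log2 difference of 0.79 ± 0.51 (adjusted p = 0.629, edgeR). In CP it averaged 1021 CPM in area 17 and 551 CPM in area 18, again without overlap, as 17.5% of tested arms did (0.89 ± 0.51, adjusted p = 0.994, edgeR), and miR-92b-5p averaged 18.8 and 5.56 CPM (1.79 ± 0.60, adjusted p = 0.778, edgeR). The median of all arms was -0.30 in VZ and -0.21 in CP, and relative to it miR-92b-3p was at 1.09 in VZ and 1.10 in CP (1.12 and 1.08 with library totals). In OSVZ the area difference of miR-92b-3p was -0.17 ± 0.44, and the inner sublayer was -0.29 ± 0.51 against the outer one. The VZ against CP difference of miR-92b-3p in area 17 minus that in area 18 was -0.099 ± 0.72, and the same for OSVZ against CP was -1.06 ± 0.67.

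For miR-25-3p the area 17 against area 18 differences were 0.38 ± 0.57 in VZ, 0.34 ± 0.49 in OSVZ and 0.83 ± 0.56 in CP, and the inner against outer difference was 0.21 ± 0.56. For miR-363-3p they were -0.55 ± 0.82, -0.41 ± 0.71, 1.23 ± 0.84 and -0.78 ± 0.82. By edgeR 0 of 6 member arms were called in any of these 4 comparisons or in the 2 differences between areas, and by DESeq2 0 of 6. The background of called arms was 0.176% in VZ, 0% in OSVZ, 0% in CP and 0% between sublayers, and 0.0878% and 0% for the differences between areas. At an unadjusted p under 0.05 there was 1 member, miR-92b-5p, in CP and in the OSVZ difference between areas (-1.94 ± 0.76), and 0 in the other 4 comparisons, beside 3.16% of all arms in CP, 2.99% in the OSVZ difference between areas, and 7.9%, 2.55%, 4.04% and 5.79% in VZ, in OSVZ, between sublayers and in the VZ difference between areas. With 2 libraries a region, the intervals were wide, for miR-92b-3p from -0.25 to 1.83 in VZ and from -0.15 to 1.93 in CP.

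No analysed arm of the miR-25 and miR-363 clusters other than the members was called by edgeR. miR-92a, which is also of the miR-363 cluster, is not analysed here. miR-106b and miR-93, which share a transcript with miR-25 and have the seed of the miR-17 family, had 0 of 4 arms called by edgeR in any of the 3 zone comparisons, 0 at an unadjusted p under 0.05 and 0 by DESeq2. miR-106b-5p averaged 1577 ± 1083 CPM in VZ, 1909 ± 695 CPM in OSVZ and 1419 ± 260 CPM in CP, and miR-93-5p 1549 ± 808, 1571 ± 996 and 1351 ± 1185 CPM (SD). The median log2 difference of the 4 arms was 0.17 in VZ and 0.44 in OSVZ, each against CP, where all tested arms had -0.22 and -0.20.

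In the cluster of miR-363, the 8 arms of miR-106a, miR-18b, miR-20b and miR-19b had 0 calls by edgeR in each zone comparison. Against CP, 2 of 8 had an unadjusted p under 0.05 in VZ and 2 in OSVZ, beside 21.3% and 15.5% of all arms, and DESeq2 called 2 in each, beside 19.3% and 14.9% of the arms it gave an adjusted p. miR-20b-5p, a miR-17 family member, was at 231 ± 89.6 CPM in VZ, 301.8 ± 129 CPM in OSVZ and 122.1 ± 51.0 CPM in CP, with a difference of 1.26 ± 0.40 for OSVZ against CP (adjusted p = 0.0526, edgeR). miR-19b-5p was at -1.36 ± 0.55 for OSVZ against CP. miR-19b is also encoded in the related miR-17 cluster, so its reads cannot be given to 1 locus. From the miR-17 cluster, miR-18a, miR-20a and miR-92a are not analysed here. Of the 6 tested arms of miR-17, miR-19a and miR-19b, miR-17-3p was lower in VZ than in CP (-1.46 ± 0.43, adjusted p = 0.0258, edgeR), and 5 were not called. The background was 4.74% of all tested arms called lower.

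miR-32, whose 5p arm carries the family seed, was low. miR-32-5p averaged 11.7 ± 15.1 CPM in VZ, 24.2 ± 24.9 CPM in OSVZ and 13.8 ± 10.6 CPM in CP. By edgeR 0 of its 2 arms were called in any zone comparison, with 0 at an unadjusted p under 0.05 and 0 by DESeq2. A row named mir-92, with no letter to say which member it is, had a 3p arm at 218 ± 67.9 CPM in VZ, 201 ± 75.9 CPM in OSVZ and 131 ± 78.0 CPM in CP (0.87 ± 0.45 for VZ against CP, adjusted p = 0.252, edgeR). Some of its reads, and some of those of the members, may be shared where sequences are alike, and how the authors counted such reads is not stated.

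Other arms were ranked by how close their profile over the 14 libraries was to each 3p arm. The measure was the root-mean-square difference of log2(CPM + 1), centred on each arm's mean. The ranking was among 374 arms of at least 10 CPM and left out all arms of the 3 members, so miR-92b-5p was not ranked. This is a description, over libraries that share their zones and days. For miR-92b-3p the closest were miR-887-3p (0.66), miR-574-5p (0.89), miR-574-3p (1.24), miR-942-5p (1.24) and miR-423-5p (1.34), where the median arm was at 2.64. miR-887-3p averaged 1826 ± 442 CPM in VZ, 968 ± 256 CPM in OSVZ and 88.0 ± 4.13 CPM in CP. miR-25-3p and miR-363-3p, the seed relatives, were at 2.10 and 2.12 from miR-92b-3p.

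For miR-25-3p the closest arms were miR-30a-3p (0.32), miR-423-3p (0.38), miR-221-3p (0.39), miR-221-5p (0.44) and miR-15b-5p (0.45), against a median of 1.203. Of these miR-423-3p was called higher in OSVZ than in CP (1.12 ± 0.35, adjusted p = 0.0461, edgeR), beside a background of 2.11% of all tested arms. These arms were picked for their likeness to miR-25-3p over the same libraries, so the call is not separate evidence. miR-221-3p, which represses the cell cycle inhibitor p27, was at 20746 ± 11390 CPM in VZ, 21368 ± 7872 CPM in OSVZ and 9756 ± 5131 CPM in CP without a call in either comparison with CP. The closest arms to miR-363-3p were let-7d-3p (0.65), miR-362-5p (0.65), miR-432-5p (0.65), miR-106a-5p (0.67), from its own cluster, and miR-93-3p (0.68). The spread of miR-363-3p itself was 0.76 on this scale, hardly more than its distance to these arms.

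**Figure D5:**
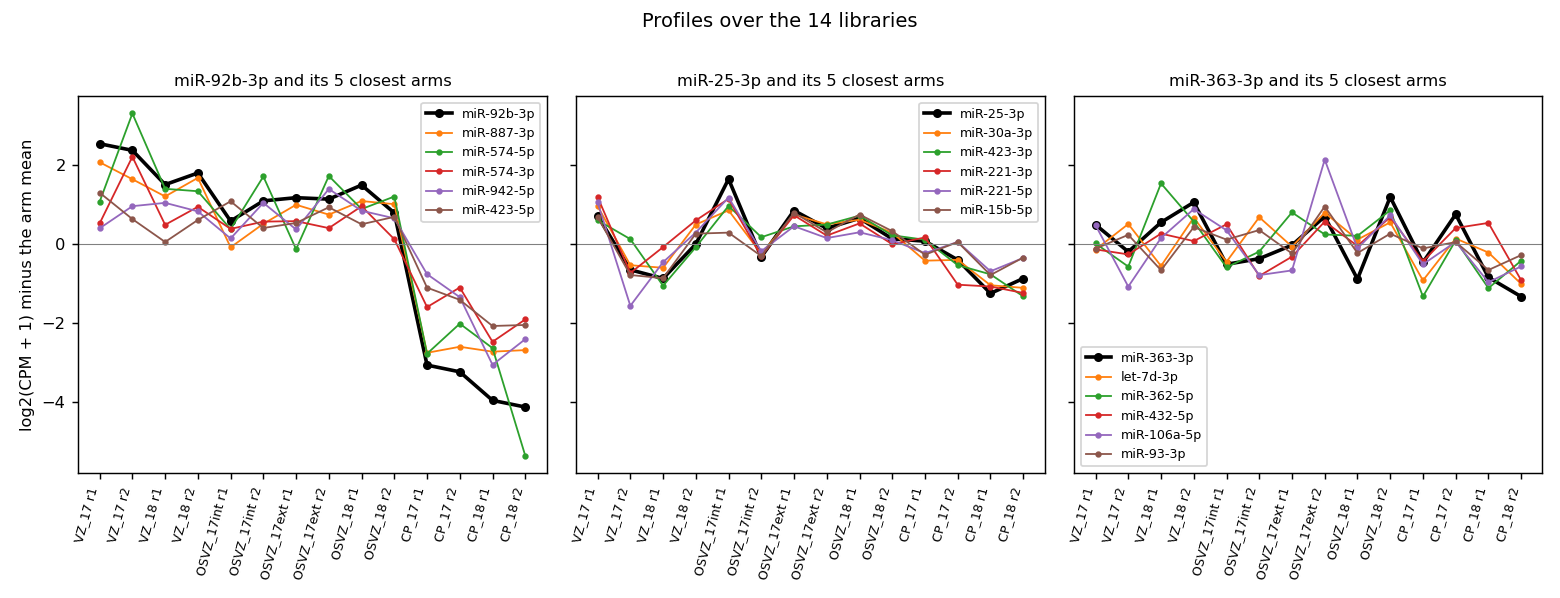
log2(CPM + 1) minus the mean of each arm over the 14 libraries, for miR-92b-3p, miR-25-3p and miR-363-3p (black) and the 5 arms closest to each (coloured), with VZ, OSVZ and CP libraries from left to right. Arms of the 3 members were left out of the search for close arms. In the 4 CP libraries miR-92b-3p lies at -3.06 to -4.12 and miR-887-3p at -2.60 to -2.75, and miR-25-3p lies at 0.066 to -1.25.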

How the data were processed

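Laser-cut tissue gave RNA by a Qiagen column kit with DTT, from which size-selected SOLiD small RNA libraries were made, per the labels' protocols. The authors deposited raw read counts per miRNA name and arm. Which aligner, genome build and miRNA annotation were used, and how multi-mapping reads were treated, is not given in the sources used here. Table columns carry region and arm. The spelling of the OSVZ sublayers told the sets apart. Another 12 value columns, whose names fit no labelled sample, were left aside, and 6 of 20 labelled samples are not analysed here.

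The 828 names in both tables gave 1656 arms. filterByExpr by region kept 1139, with 99.99% of counts. edgeR 4.0.16 (R 4.3.3) fitted 7 region means and the replicate set as a block, with TMM scaling, 6 residual and 28.1 prior degrees of freedom. DESeq2 1.42.0 was an alternative. The areas weighed equally in each zone, and so did the sublayers within OSVZ of area 17. The labels give each set 1 embryonic day. Deviations from region means correlated within a set in 21 of 21 pairs of regions above 0.1 (median r = 0.589, 0.209 to 0.733, across arms of at least 10 CPM, which are not independent).

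Ratios used counts plus 0.5 and exact 2-sided permutation tests over libraries. The SE of a fitted edgeR difference was not estimated directly. It was taken as the size of the difference divided by the square root of its F statistic. Intervals use this SE and 34.1 degrees of freedom, and cover the spread between libraries. Reads carry no molecular identifiers, so they need not stand for separate molecules. In simulated VZ against CP data of 1139 arms, edgeR recovered 10% of 2-fold, 40% of 4-fold, 78% of 8-fold and 98% of 16-fold changes, 50 arms each. The changed arms were drawn only from those with a mean of at least 10 CPM, so these rates do not cover rarer arms. No shift between the sets was simulated. No 2 libraries were alike within sampling noise (lowest chi-square per degree of freedom 181).

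Members and lists were chosen with earlier results of these data known. All member arms are named, with up to 4 arms of a list by p and the 5 closest arms by profile that are not of the members. The endothelial, choroid plexus, liver and muscle, and pluripotent lists were also summed.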

Additional observations from a re-analysis of the deposited data

Results flagged for a closer look

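Within a zone, 39 sets of libraries (6 arms, 6 ratios and the seed pool share in 3 zones) were searched for a library far from the rest by Dixon's criterion, which chance meets in about 1 of 20 sets, and 5 met it. miR-25-5p was at 68.7 CPM in VZ_18 replicate 1, where the other VZ libraries had 9.87 to 19.6 CPM. miR-363-5p was at 50.9 CPM in VZ_17 replicate 2, with 0 to 5.95 CPM in the other VZ libraries, and at 12.7 CPM in OSVZ_17int replicate 2, with 0 to 3.84 CPM in the other OSVZ libraries. The log2 ratio of the 3p to the 5p arm of miR-25 was 5.79 in OSVZ_17int replicate 2, below the other OSVZ libraries. The share of miR-92b-3p in the seed pool was 59.4% in OSVZ_17int replicate 1, with 79.2% to 89.0% in the other OSVZ libraries. That library had the highest level of miR-25-3p (9094 CPM) and the lowest OSVZ level of miR-92b-3p (13464 CPM).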

How the results depend on the processing

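Both miR-92b arms were called higher in VZ and in OSVZ than in CP under every alternative run, at 5.57 to 6.08 and 4.62 to 4.93 for miR-92b-3p, and with each of the 14 libraries left out in turn, at 5.53 to 5.96 and 4.47 to 4.97. Low counts limit the 5p arms of miR-25 and miR-363, and 2 libraries a region limit the area comparisons. The causes of the changes listed here were not tested. With the row named mir-92 added to the pool, a choice made after seeing the data, the mean share of miR-92b-3p was 92.6% in VZ, 78.96% in OSVZ and 26.4% in CP. All pool shares given here are without miR-92a, since no name of that kind was used. Without the replicate block, arms called numbered 53 in VZ against CP (84 with it), 0 in OSVZ against VZ (1 with it), 0 between areas in VZ (2 with it) and 0 for the VZ difference between areas (1 with it), and miR-25-5p was at 0.13 between areas in CP. Permuting within replicate sets, the other form of the block, left the adjusted p of the ratio of miR-92b-3p to miR-25-3p at 0.18 for VZ against CP and 0.12 for both other pairs of zones. As the zones did not overlap in this ratio, the raw p-values were the smallest that permuting within sets allows. With these group sizes they could hardly pass, so the larger values do not show a weaker difference.

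miR-25-3p in OSVZ against CP was called at 1.30 with DESeq2 size factors, 1.37 with library totals, 1.27 with no filter, 1.24 with arms of at least 10 CPM, 1.30 with DESeq2 and 1.28 without VZ_18 replicate 1 and VZ_17 replicate 2, which also gave 1.17 in VZ against CP. DESeq2 called 169 arms in VZ against CP, 120 in OSVZ against CP with 4 member arms, 28 in OSVZ against VZ with 2 member arms (miR-92b-3p at -1.07), 22 between areas in VZ, 3 in CP, 2 between sublayers and 8 for the VZ difference between areas. Counts summed per set and zone gave 43 arms in OSVZ against CP and 0 in OSVZ against VZ, where DESeq2 size factors, library totals and arms of at least 10 CPM also gave 0. Between areas in VZ, DESeq2 size factors gave 1, no filter 5 and arms of at least 10 CPM 0. No filter gave 3 in CP and 4 for the VZ difference between areas, where arms of at least 10 CPM gave 0. With library totals miR-25-5p was at -0.099 in OSVZ against VZ.

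Without VZ_18 replicate 1 and VZ_17 replicate 2 together, arms called numbered 125 in OSVZ against CP with 4 member arms, 2 in OSVZ against VZ, 0 between areas in VZ, 1 in OSVZ, 3 in CP, 6 between sublayers, and 0 and 1 for the VZ and OSVZ differences between areas. miR-363-5p was then at -0.63 in VZ against CP, 2.38 in OSVZ against VZ and -7.69 between areas in VZ, where miR-25-5p was at 0.22 and miR-363-3p at 0.39, and miR-25-5p was at 0.42 for the VZ difference between areas. The arm ratio of miR-92b was at -0.27 in OSVZ against VZ, that of miR-25 at 0.16 in VZ against CP and -1.16 in OSVZ against VZ, and that of miR-363 at 0.86 and -1.41.

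With single libraries left out, arms called ranged from 53 (without CP_17 replicate 2) to 120 in VZ against CP, from 44 (without OSVZ_18 replicate 2 or CP_17 replicate 1) to 100 in OSVZ against CP, and from 0 to 24 (without VZ_17 replicate 1) in OSVZ against VZ. They ranged from 1 to 26 (without VZ_17 replicate 1) between areas in VZ, 0 to 1 in OSVZ, 0 to 3 in CP, 0 to 1 between sublayers, 0 to 18 (without VZ_17 replicate 1) for the VZ difference between areas and 0 to 1 for the OSVZ one. Member arms called in OSVZ against CP were 2 to 3. miR-25-3p ranged from -0.026 to 0.99 in VZ against CP and 0.91 to 1.42 in OSVZ against CP. miR-363-5p ranged from -1.005 to 4.51, -0.91 to 3.20 and -3.82 to 2.61 in VZ against CP, OSVZ against CP and OSVZ against VZ, where miR-25-5p ranged from -0.12 to 0.99 and miR-363-3p from -0.85 to 0.13. Between areas in VZ, the ranges were -0.26 to 1.30 for miR-25-3p, -1.67 to 0.77 for miR-25-5p, -1.43 to 0.13 for miR-363-3p and -6.47 to 3.57 for miR-363-5p. In OSVZ they were -0.68 to 0.24 for miR-92b-3p, -0.24 to 0.57 for miR-25-3p, -1.13 to 0.56 for miR-363-3p and -1.40 to 3.90 for miR-363-5p, and in CP -1.22 to 1.29 for miR-25-5p. Between sublayers they were -0.84 to 0.65 for miR-25-3p and -0.85 to 9.75 for miR-363-5p. For the VZ difference between areas they were -0.37 to 0.12 for miR-92b-3p, -1.25 to 0.51 for miR-25-3p and -1.91 to 0.89 for miR-25-5p, and for the OSVZ one -0.49 to 2.01 for miR-25-5p and -6.94 to 0.93 for miR-363-5p. The arm ratio of miR-92b ranged from -0.16 to 0.29 in VZ against CP and -0.014 to 0.35 in OSVZ against VZ, that of miR-25 from -0.61 to 0.63 in OSVZ against VZ, and that of miR-363 from -2.45 to 0.74, -1.48 to 0.20 and -1.29 to 1.91 in VZ against CP, OSVZ against CP and OSVZ against VZ.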

Other observations

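The lists of other cells not described beside a result had these sums. Endothelial arms (miR-126) summed to 980 to 2795 CPM in VZ, 1434 to 5289 CPM in OSVZ and 1547 to 4505 CPM in CP, and all zones overlapped. Liver and muscle arms (only miR-1 of the list was found) summed to 17.21 to 76.1 CPM in VZ, 7.81 to 71.8 CPM in OSVZ and 6.67 to 91.9 CPM in CP. Pluripotent arms, from the miR-302 names found, summed to 1.08 to 74.3 CPM in VZ, 0.662 to 21.5 CPM in OSVZ and 3.10 to 19.2 CPM in CP.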
